A study of Drosophila melanogaster with 2 samples.

Results

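Binding of the CG10321-eGFP fusion protein was described at 9 paired-like homeobox genes of Drosophila melanogaster: otp, Rx, hbn, Vsx1, unc-4, OdsH, Ptx1, Gsc and al. The 9 genes were taken as listed, out of 13968 protein-coding genes, and every peak whose summit lay in a listed gene or within 10 kb of it was used. The genes were chosen with earlier results of these data known, so their counts are not those of an independent list. Chromatin immunoprecipitation followed by sequencing (ChIP-seq) was done on whole embryos aged 0 to 24 h, from transgenic flies whose CG10321 protein carries an eGFP tag (a green fluorescent protein). The tag was pulled down with an antibody against GFP, from chromatin sonicated to 200 to 800 bp. There were 2 biological replicates of this 1 genotype and stage, and a control library was not analysed here. The files were peak lists in dm6: a conservative list drawn from both replicates (3006 peaks on the chromosome arms), another thresholded list of both replicates (3457 peaks) and a list for each replicate (1996 peaks in replicate 1 and 2128 in replicate 2). Read depth is unknown. The signal value is the authors' own number for a peak; its scale is unknown here, and it was used to rank peaks within a list. In whole embryos, binding in more cells and stronger binding per cell cannot be told apart, and peak lists hold no expression values with which to check the neural label of these genes. With 1 group and no control, no difference between conditions could be tested, and the values below are descriptions.

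Homeobox genes encode transcription factors with a homeodomain, a DNA-binding domain that favours sites with a TAAT core. The paired-like class resembles the Pax protein Paired in its homeodomain but lacks the paired domain, and its members can bind as dimers to palindromic TAAT sites. In the fly, otp (orthopedia) is expressed in the hindgut and the central nervous system, and Rx and hbn (homeobrain) act in the brain. Vsx1 acts in the developing optic lobe, and unc-4 acts in neurons of the ventral nerve cord, next to its paralog OdsH (Odysseus-site homeobox), known for a role in hybrid male sterility. Ptx1 is the relative of vertebrate Pitx genes. Gsc (goosecoid) acts in the foregut and its nervous system, and al (aristaless) is best known for patterning the tips of the appendages. Here these genes are places in the genome where another protein was found, and nothing in the files reports on the activity of their own products.

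In dm6 and Ensembl gene models, otp (FBgn0015524, 2R:20883625-20903414, - strand), Rx (FBgn0020617, 2R:20916753-20937030, + strand) and hbn (FBgn0008636, 2R:20954668-20960909, - strand) lie in the same stretch, with other genes between them. The genes unc-4 (FBgn0024184, X:17768569-17778708) and OdsH (FBgn0026058, X:17791010-17814011) are next to each other, both on the + strand. Vsx1 (FBgn0263511) is at X:5594255-5612865, Ptx1 (FBgn0020912) at 3R:30912754-30930682 and al (FBgn0000061) at 2L:378112-387439, all on the + strand. Gsc (FBgn0010323) is at 2L:583540-594685 on the - strand, 196100 bp from al.

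Of the 9 genes 8 had a peak at their locus and 6 had one at their promoter, defined as a summit within 500 bp of a transcription start site (TSS). Promoter peaks were found at otp, unc-4, Vsx1, Ptx1, hbn and al. Rx and OdsH had peaks farther upstream and in introns, and Gsc had no peak. Over all protein-coding genes the conservative list placed a summit at the promoter of 10.9% and in the gene or within 10 kb of 45.9%. Because the genes were chosen with earlier results of these data known, these shares stand beside the counts as a description only. The counts of 6 and 8 were the same in all 4 lists. The shares over all protein-coding genes were 12.3% and 50.1% in the other thresholded list, 7.9% and 35.3% in the list of replicate 1, and 8.16% and 36.4% in that of replicate 2. The 9 genes are long, with a median of 17929 bp against 2164.5 bp over all protein-coding genes, and a longer gene has a wider window to hold a peak. Of the 2873 protein-coding genes of at least 6242 bp, the length of the shortest of the 9, the promoter share was 19.8% and the locus share 58.9%.

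The loci held 17 peaks of the conservative list, or 5.67 per 100 kb of gene and flank. Over the whole arms, the Y and sequence far from any gene included, there were 2.19 per 100 kb. There were 4 at otp, 3 at Ptx1, 2 each at Rx, Vsx1, unc-4 and OdsH, and 1 each at hbn and al. Of the 9 genes 6 had at least 2 peaks, as did 20.3% of all protein-coding genes. The median signal of the 17 peaks was 192, against 100.005 over all 3006, and 14 of the 17 lay above that overall median. Their median rank was the top 24.7% of the list. Of the 17 summits 7 (41.2%) lay within 500 bp of the TSS of any gene, the 6 promoter peaks and 1 near a microRNA gene, against 47.2% of all summits. A few very strong promoter peaks stood apart from many lower ones. Of the 17 peaks 4 were among the 72 with a signal of 2000 or more, and 1 had a signal of 1083. The other 12 lay between 55.3 and 260, a range that includes the overall median of the list.

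**Figure D1:**
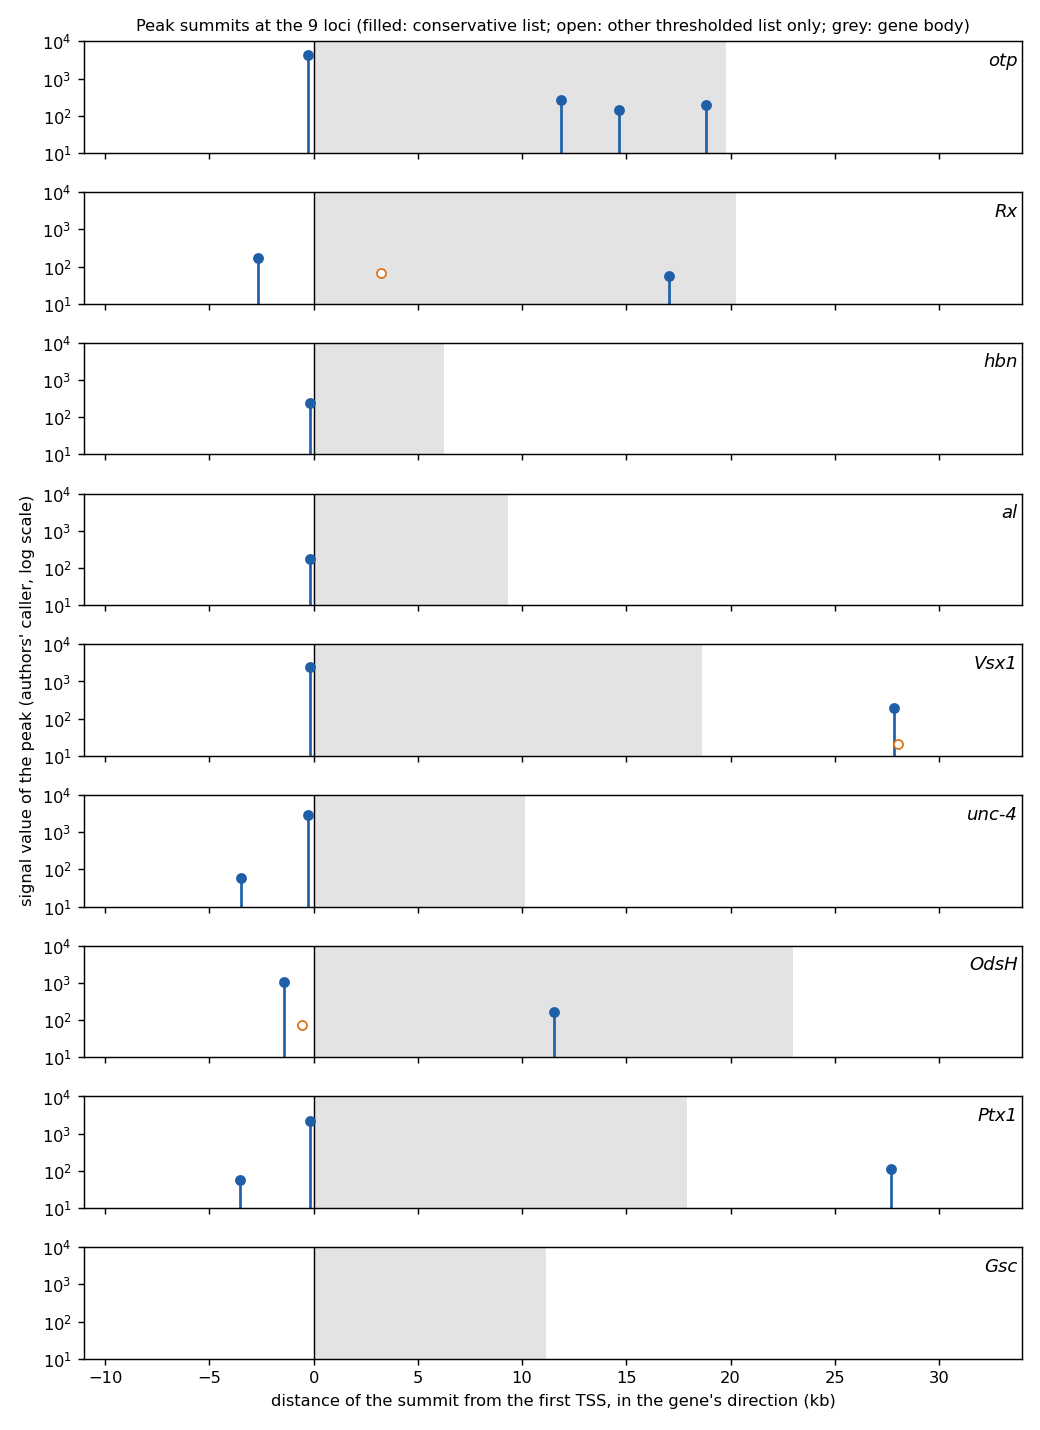
Summits at each of the 9 loci, with the distance from the first TSS in the direction of the gene on the x axis (kb) and the signal value on a log scale on the y axis. Filled points with stems are conservative-list peaks, open points are peaks only of the other thresholded list and grey marks the gene body. The strongest peaks, at otp, unc-4, Vsx1 and Ptx1, stand just left of the TSS, and the Gsc panel is empty.

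The strong promoter peaks belonged to otp, unc-4, Vsx1 and Ptx1. At unc-4 the signal was 2959 in the conservative list (rank 29 of 3006), 1533 in replicate 1 (rank 39) and 1409 in replicate 2 (rank 21). At Vsx1 it was 2402 (rank 55), 1367 in replicate 1 (rank 49) and 1038 in replicate 2 (rank 56). Both genes ranked in the top 60 of each list. At Ptx1 the promoter signal was 2251 (rank 58), 1205 in replicate 1 (rank 67) and 1053 in replicate 2 (rank 53). The otp promoter was stronger than any of these, with 4188 (rank 4), 2382 in replicate 1 (rank 5) and 1803 in replicate 2 (rank 3). Among the 1525 protein-coding genes with a promoter peak, ordered by their strongest one, otp was in place 2, unc-4 in place 19, Vsx1 in place 37 and Ptx1 in place 40. The median over these 1525 genes was a signal of 112.

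The promoter peaks of hbn and al ranked lower than these 4. At hbn the signal was 234 (rank 606), 135 in replicate 1 (rank 557) and 94.1 in replicate 2 (rank 796). At al it was 176 (rank 804), 77.2 in replicate 1 (rank 906) and 102 in replicate 2 (rank 732). Both were still above the overall median of their list in the conservative set. Among genes with a promoter peak they took places 351 and 474.

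All 6 promoter summits lay upstream of the TSS, in a narrow range. The distance was 251 bp at otp, 245 bp at unc-4, 195 bp at Vsx1, 182 bp at al, 168 bp at Ptx1 and 164 bp at hbn. The peaks of otp, unc-4 and Vsx1, the strongest of the 6, lay farthest from the TSS. The weaker peak of al lay farther out than that of Ptx1. Over all 1418 conservative summits within 500 bp of a TSS, 71.7% lay upstream, the median position was -92.5 bp, and 15.2% fell in the range from -251 to -164 bp spanned by the 6. That range was read off the 6 values themselves, so its share is a description. Each of the 6 summits was outside the gene and inside no other annotated gene.

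**Figure D2:**
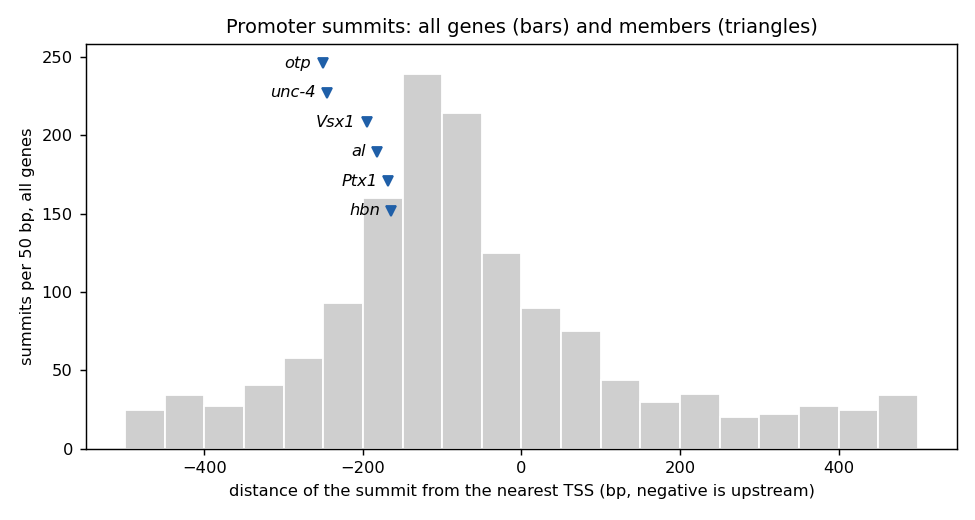
Distance of promoter summits from the nearest TSS (bp, negative is upstream), with bars for the number of all 1418 conservative summits per 50 bp and triangles for the 6 genes, whose height has no meaning. The 6 triangles lie between -251 and -164 bp, to the left of the median of -92.5 bp of all summits.

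The bases around the strongest peak of 5 of the 8 loci with a peak are printed to show the sequence at the summits, and the other 3 loci are described by their motif counts only. Each run is the + strand of dm6, taken from the RefSeq copy of that assembly, 151 bases with the summit in the middle, and all 5 genes lie on the + strand. No window overlaps an exon. Capitals mark GAGAG or its reverse complement CTCTC, the core of the GA-rich element that GAGA factor is known to bind.
unc-4, chrX:17768249-17768399: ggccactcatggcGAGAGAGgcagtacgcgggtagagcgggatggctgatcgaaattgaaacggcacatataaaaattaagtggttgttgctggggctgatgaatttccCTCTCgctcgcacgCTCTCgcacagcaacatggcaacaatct
Vsx1, chrX:5593985-5594135: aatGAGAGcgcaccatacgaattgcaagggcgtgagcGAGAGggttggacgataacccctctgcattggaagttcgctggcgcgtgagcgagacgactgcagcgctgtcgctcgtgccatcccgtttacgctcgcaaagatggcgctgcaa
Ptx1, chr3R:30912511-30912661: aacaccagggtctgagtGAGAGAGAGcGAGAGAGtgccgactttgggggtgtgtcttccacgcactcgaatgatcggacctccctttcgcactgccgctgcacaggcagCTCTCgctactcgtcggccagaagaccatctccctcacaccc
OdsH, chrX:17789535-17789685: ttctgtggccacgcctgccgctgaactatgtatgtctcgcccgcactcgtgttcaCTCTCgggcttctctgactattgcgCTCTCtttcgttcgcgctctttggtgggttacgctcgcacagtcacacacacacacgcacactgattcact
al, chr2L:377855-378005: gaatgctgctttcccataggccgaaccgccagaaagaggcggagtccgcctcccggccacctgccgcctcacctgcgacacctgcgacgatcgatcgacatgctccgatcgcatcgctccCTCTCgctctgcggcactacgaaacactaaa

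Matches to GAGAG, counted with overlaps on both strands, numbered 6 in the window of Ptx1, 4 in that of unc-4, 2 each in those of Vsx1 and OdsH and 1 in that of al. The G and C content of the window was 60.3% at Ptx1, 52.3% at unc-4, 58.9% at Vsx1, 55.6% at OdsH and 62.3% at al. These 5 windows hold short GA or CT stretches scattered in GC-rich sequence, which does not hold for every locus. The promoter window of otp, not printed, had no GAGAG within 50 bp of the summit. Within that shorter distance the matches numbered 5 at hbn, 3 at Ptx1, 2 each at OdsH and Rx and 1 each at unc-4, Vsx1 and al. A match to these letters is a description and does not show that a factor was there.

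The motif count was then made over all 17 peaks, within 50 bp of each summit. GAGAG was found in 11 of 17 windows (64.7%), against 30.7% of all 3006 windows and 13.7% of the windows centred 500 bp to each side of all summits. Among the 6 promoter windows 5 held it, against 26.4% of the windows of all 1418 summits within 500 bp of a TSS. These sets were not matched for signal, and 4 of the 6 promoter peaks had a signal of 2000 or more. The longer GAGAGAG, which contains GAGAG, was found in 4 of 17 (23.5%), against 11.6% of all windows and 2.46% of flanks, and in 43.8% of the windows when only the list of replicate 2 was used. These 4 were at Ptx1 and hbn in the promoter and at 2 intronic peaks of otp, 1 of which held 11 overlapping matches. The shorter GAGAG was not particular to the 9 genes. It was in 10 of 20 windows at the loci of 9 other paired-like genes and in 5 of 7 at those of the Pax genes with a homeobox. GAGAG also went with signal, being in 61.1% of the 72 windows of signal 2000 or more and in 30.0% of the others, and in 8 of the 13 weaker peaks at these loci.

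None of the 17 windows held the homeodomain-type words searched, each of them longer than TAAT. The bare TAAT core was not counted. TAATTA, the core that many homeodomains favour, was in 5.66% of all windows, TAATCC, the word bound by Bicoid-type homeodomains such as those of Ptx1 and Gsc, was in 2.26%, and the palindrome TAATNNNATTA was in 0.798%. CACACAC (7.05% of all windows), the DNA replication-related element TATCGATA (0.898%) and CAGGTA (1.73%), the core of the site of the early activator Zelda, were also in none of the 17. At such shares few matches could fall in 17 windows, and nothing can be read from their lack.

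The summit windows were rich in G and C at every locus. The 17 windows ranged from 48.5% to 68.3% with a median of 56.4%, and all 17 lay above the median of 44.6% over all 3006 windows. Of all 3006 windows 41.0% reached the lowest of the 17 and 16.4% reached their median. The 6 promoter windows had a median of 61.9%, against 43.6% over all promoter summits. The composition changed within a short distance: windows 500 bp to each side of the 17 summits had a median of 43.6%, near the 41.6% of the flanks of all peaks. Strong peaks of the whole list also tended to be GC-rich, with a median of 57.9% and a lowest value of 37.6% in the 72 of signal 2000 or more. The 13 weaker peaks at these loci had a median of 55.4%, against 44.6% over the 2934 weaker peaks of the list. These weaker sets were not matched for signal, and the part of signal in base composition was not tested. The part of base composition in sequencing or peak calling was not tested.

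**Figure D3:**
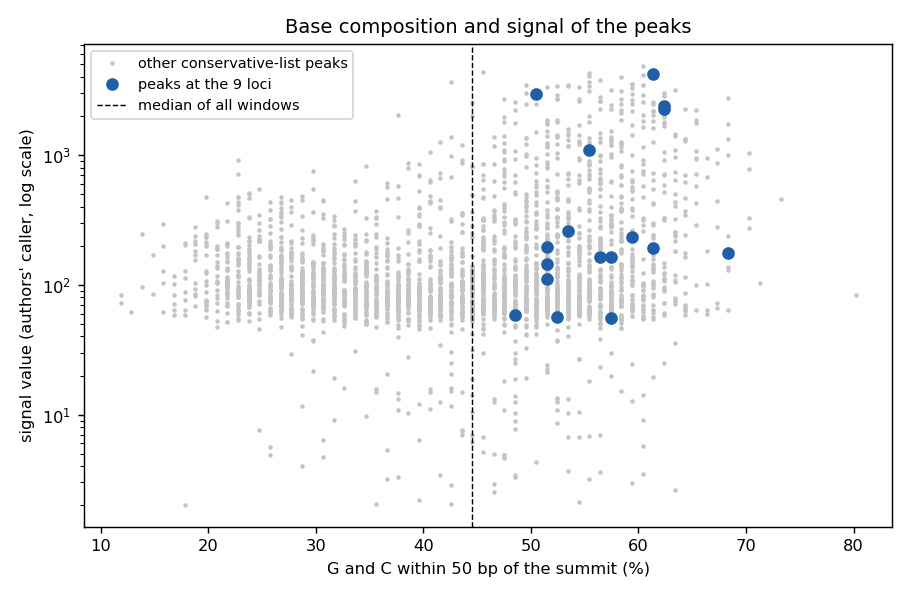
Percentage of G and C within 50 bp of each summit (x axis) against the signal value on a log scale (y axis) for all conservative-list peaks. Blue points are the 17 peaks at the 9 loci, and all of them lie to the right of the dashed line at the overall median of 44.6%, at signals from 55.3 to 4188.

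OdsH carried its strongest peak away from the start site. The summit lay 1400 bp upstream of its only TSS, with a signal of 1083 (rank 156), 574 in replicate 1 (rank 167) and 494 in replicate 2 (rank 146), where a second and weaker summit of 35.1 lay 1200 bp upstream. A peak in an intron, 11549 bp downstream of the TSS, had a signal of 165, 116 in replicate 1 and 66.8 in replicate 2. A further summit 537 bp upstream of the TSS, just outside the promoter window, was in the other thresholded list (signal 74.6) and in replicate 1 (53.2) but not in the conservative list. In the ranked list of replicate 2, which keeps peaks of any score, the value at that place was 18.9 with a score of 103, where thresholded peaks score at least 830. Its neighbour unc-4 ends 12301 bp before OdsH begins, and no peak of the conservative list fell in between other than the OdsH summit at -1400 bp. Besides its promoter peak unc-4 had a weak peak 3462 bp upstream (58.2), which was in neither replicate list.

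At otp the other 3 peaks lay deep in the gene. In the direction of transcription they were 11863, 14631 and 18816 bp from the first TSS, the first 2 of them in introns and the last in a coding exon. Their signals were 260, 145 and 192 in the conservative list, 161, 73.2 and 112 in replicate 1 and 95.7, 66.5 and 86.7 in replicate 2. All 3 were thus in every list, at conservative ranks 554, 967 and 741 against rank 4 for the promoter peak of the same gene. A second start site is annotated inside otp, and the nearest conservative summit was 6033 bp downstream of it.

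Rx lies between otp and hbn on arm 2R, 13338 bp from otp and 17637 bp from hbn, and had no peak of a signal above 165. A summit 2652 bp upstream of its TSS had a signal of 165, 81.0 in replicate 1 and 68.2 in replicate 2. An intronic summit 17068 bp downstream of the TSS had 55.3 and was in neither replicate list, with 33.7 and 35.4 in the ranked lists. Another intronic peak, 3214 bp downstream of the TSS, was in the other thresholded list (68.7) and in replicate 2 (2 peaks, 55.7 and 6.31) but not in replicate 1, where the ranked list gave 18.3. Within 500 bp of the Rx TSS the ranked lists held low peaks, the highest at 18.7 in replicate 1 (score 45), 20.9 in replicate 2 (score 133) and 34.8 in the list of both (score 297). Along this stretch otp had one of the highest promoter signals of the list, Rx had no promoter peak and hbn had one of 234.

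Ptx1 had 2 peaks besides its promoter. A summit 3526 bp upstream of the TSS had a signal of 56.8 and was in neither replicate list, with 32.5 in the ranked list of replicate 1 and 29.9 in that of replicate 2. A summit 27687 bp downstream of the TSS, beyond the end of the gene and 3339 bp upstream of CG15550, had 110, with 58.9 in replicate 1, and was below the threshold in replicate 2 (45.6 in the ranked list, score 801). The second peak counted at Vsx1 lay 27822 bp downstream of its TSS, in an intron of Mlc-c, the gene of a cytoplasmic myosin light chain, and 339 bp from the start of mir-3645. It had a signal of 196, with 102 in replicate 1 and 90.7 in replicate 2, and it counts at Vsx1 through lying within 10 kb of the gene. The other thresholded list held a second, small peak there (21.5).

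Gsc was the only one of the 9 genes with no peak of any of the 4 lists in the gene or within 10 kb. The nearest conservative summit to its first TSS was 64530 bp away. The ranked lists held 16 peaks of any score at the locus in replicate 1 and 29 in replicate 2. The strongest had a signal of 33.2 in replicate 1, 271 bp upstream of the first TSS and with a score of 298, and 28.5 in replicate 2, 608 bp upstream and with a score of 130. In the ranked list of both replicates used here the strongest was 58.6, 515 bp upstream, with a score of 533. These values were above the medians of the ranked lists, 13.2 in replicate 1, 11.6 in replicate 2 and 17.4 in the list of both, and were in the top 3.88%, 5.11% and 2.54% of those lists. The signal of 58.6 was above that of the weakest conservative peaks at unc-4 (58.2), Ptx1 (56.8) and Rx (55.3), and it was by its score, under 830 in each list, that Gsc had no thresholded peak. Binding at Gsc below the threshold of these lists cannot be told apart from background here. No peak scoring at least 830 in the ranked list of both replicates was missing from the conservative list at any of the 9 loci.

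Among the sites kept, the replicates put the same places first. The conservative list was thresholded by irreproducible discovery rate, a measure of how well the rank of a peak repeats. Agreement between the replicates at its peaks is therefore partly set by that choice. The same holds for summit distances and rho, which cover only sites called in both replicate lists. Of the 17 conservative peaks 13 (76.5%) overlapped a peak of each replicate list, against 45.8% of all 3006. The 3 that overlapped neither were the weakest 3, with signals from 55.3 to 58.2. The shares were not matched for signal, and the median signal of the 17 was 192, against 100.005 over all 3006. At the 13 shared sites the summits of the replicates were a median of 11 bp apart, from 0 bp at the Ptx1 promoter to 75 bp at the OdsH intron. Spearman's rho of the replicates' signals over these 13 sites was 0.841, a description over sites of the same libraries. As a percentage of its own list, the rank of the otp promoter was 0.251% in replicate 1 and 0.141% in replicate 2, that of the unc-4 promoter was 1.95% and 0.987%, and that of the hbn promoter was 27.9% and 37.4%. The strongest 5 sites held ranks in the top 9% of both lists, and the weaker sites spread from 24.3% to 61.9%. Of the weaker sites in both lists only al ranked higher in replicate 2 (34.4%) than in replicate 1 (45.4%).

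**Figure D4:**
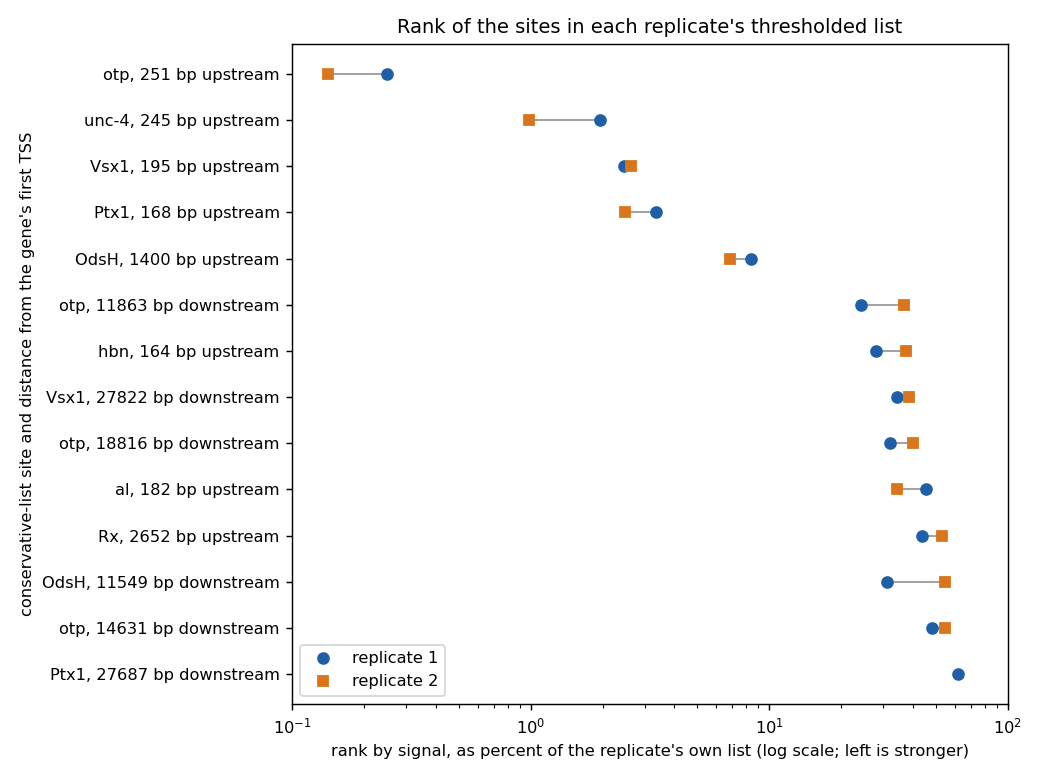
Rank by signal of the 14 conservative-list sites that at least 1 replicate list holds, as a percentage of each replicate's own list on a log scale (left is stronger), with circles for replicate 1 and squares for replicate 2. The sites at otp, unc-4, Vsx1, Ptx1 and OdsH with the strongest peaks stay at the left in both replicates, and the distal Ptx1 site has a circle only.

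Of 9 other paired-like genes 4 had a promoter peak in the conservative list, against 10.9% of protein-coding genes. The signal was 3401 at oc or orthodenticle, a head gap gene. Drgx had 659, repo, the regulator of glial fate, had 619, and PHDP had 57.3, with no promoter peak in either replicate list. CG34367, Pph13, CG11294, CG32532 and CG9876 had none at the promoter, although CG32532 had a peak of 1283 elsewhere at its locus. Pph13, which acts in photoreceptors, is separated from Gsc by 3990 bp and, like Gsc, had no peak within 10 kb. Of the 7 Pax genes with a homeobox 4 had a promoter peak: toy (3620), eyg (3424) and ey (1030), all of the eye-determination group, and gsb (114). The summit windows at the loci of the 9 other paired-like genes had a median G and C content of 52.0% over 20 peaks, and those of the Pax genes 52.5% over 7 peaks, so that both sets also lay above the 44.6% of all windows.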

How the data were processed

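Peak lists of 2 replicates of 1 group were analysed. Per the deposited file lists, peaks in dm6 were derived from the replicates' alignments and a shared further file, and were ranked and thresholded by irreproducible discovery rate. No aligner or caller is named in the sources used here. The deposited score (whole numbers up to 1000) and the deposited signal value were used as the authors gave them, and the summit was the peak start plus the authors' offset. Further columns of single inputs, 16 in all, carry no sample name and were not used. Depth is unknown.

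Gene models were Ensembl release 115, without transposable elements and without entries that are products of another gene, and sequence came from the RefSeq copy of the assembly, whose arm lengths no peak exceeded. Peaks on the 7 arms were kept. Replicate overlap meant at least 1 shared bp. Both strands were searched for motifs, up to 50 bp from a summit, and the code was tested on simulated data. All 9 genes and all their peaks are named. Of the related genes looked at for comparison, not all are reported here. The genes, the gene lists and the motifs were chosen with earlier results of these data known. No test was run, since there is 1 group. Python 3.11.15, pandas 2.3.3 and numpy 2.4.6 were used.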

Additional observations from a re-analysis of the deposited data

How the results depend on the processing

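A count was taken as the same within 1.5 times, a share in both replicates within its Wilson interval, and any other value within 1 SD of the 2 replicates. The counts of genes with a promoter peak, genes with a locus peak and locus peaks stayed within that limit, the first at its edge: a TSS distance of 200 bp left 4 of 6 genes, losing otp and unc-4, the strongest promoter peaks, and lowered the share of locus peaks near a TSS from 41.2% to 23.5%. In the other thresholded list the median signal was 171 against 192. Among peaks at or above the median signal of the list, the share near a TSS was 50%, the median signal 215.5 and the share in both replicates 92.9%. That cut removed the 3 weakest peaks, which were in neither replicate list, so the rise of the last 2 values was fixed by it. With 20 kb to each side the share near a TSS was 38.9%. The shorter word GAGAG in place of GAGAGAG gave 64.7% of windows against 23.5%. In the list of replicate 1 or of replicate 2 alone, the share near a TSS ran from 43.8% to 46.7%, the median signal from 92.4 to 116, the median rank from the top 31.1% to the top 38.0% against 24.7%, and the share with GAGAGAG from 26.7% to 43.8%. Signal was used within a list only, so the median signals of the replicate lists cannot be set against 192, although they are counted in the tally that follows. Of 51 alternative values 37 stayed within these limits. No paired analysis was possible because there is 1 group. Depth is unknown, and the 2 replicates and 17 peaks limit every share.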
